A study of Homo sapiens with 5 samples.

Results

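The genes described here are 10 listed components of transforming growth factor beta (TGF-beta) and bone morphogenetic protein (BMP) signalling: the receptors BMPR2, ACVR1B and TGFBR1, the signal transducers SMAD2, SMAD3, SMAD4, SMAD5 and SMAD7, and the nuclear repressors SKI and SKIL. They were taken by gene name from the authors' deposited table of 11976 genes, which held 9 of the 10; SMAD7, the inhibitory SMAD, was not analysed here. Bulk RNA-seq compared 3 libraries labelled ERF knockout with 2 libraries labelled wild type. All 5 came from HUDEP-2, an immortalised erythroid progenitor line from umbilical cord blood, and ERF is a transcriptional repressor with an ETS DNA-binding domain. The wild-type titles carry the letters SCR and the name of the authors' table the tag Pre, neither of which the labels explain. Nothing in the labels gives the culture stage, the position of the edit or whether the knockout libraries are 1 clone. Nor do they say that replicates were grown separately; each p-value below therefore reflects variation among these 5 libraries, and that variation may be technical.

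Ligands of this family bind a type II receptor, which phosphorylates a type I receptor of the same branch. BMPR2 is a type II receptor of the BMP branch, and TGFBR1 and ACVR1B are type I receptors of the TGF-beta and activin branch. Type I receptors of the TGF-beta and activin branch phosphorylate SMAD2 and SMAD3, and those of the BMP branch phosphorylate SMAD5 and its relatives. The phosphorylated SMADs join SMAD4, enter the nucleus and bind DNA, where SKI and SKIL recruit corepressors and hold target genes off. In erythroid cells the pathway is known as a brake on late maturation, and ligand traps that bind activins and GDF11 are used to treat anemia in β-thalassemia.

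The authors' deposited table gave 1 row per gene, with the edgeR F statistic, raw and adjusted p-values, the log2 fold change and the average expression of the 5 libraries as log2 CPM (log2 of the read count scaled to library size). It held no value per library, so the levels in single libraries, their overlap between the genotypes and the depth of each library are unknown. A gene was called when its adjusted p was below 0.05. Standard errors (SE) and 95% intervals were derived from the fold change and F. Fewer cells that express a gene and less RNA per cell cannot be told apart in bulk RNA.

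The header names neither genotype as the numerator. Directions were set so that HBG2, a γ-globin gene, was higher in the libraries labelled knockout, because the series title links inactivation of ERF to γ-globin reactivation; deposited fold changes were multiplied by -1. On this reading HBG2 stood at a log2 fold change of 1.88 (SE 0.22) and ERF itself at 0.89 (SE 0.07). The authors' deposited table held -1.88 for HBG2 and -0.89 for ERF. ERF RNA thus went against the knockout label, and RNA level does not measure ERF protein. With the other reading every higher and lower below is exchanged, while sizes, errors and calls stay the same. Every log2 fold change below, also where credited to the authors' deposited table, is the deposited value multiplied by -1. The SE and intervals given with it are derived and were not part of that table.

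Of the 9 measured genes, 6 were called, 3 higher and 3 lower in knockout-labelled libraries. BMPR2, SMAD3 and ACVR1B were lower, SKIL, TGFBR1 and SKI were higher, and SMAD2, SMAD4 and SMAD5 did not pass the threshold. Over all genes of the authors' deposited table, 50.9% were called, 24.9% higher and 25.9% lower. At a change of at least 1.5-fold, 3 of the 9 (BMPR2, SMAD3 and SKIL) were called, beside 11.2% of all genes. With Bonferroni adjustment in place of Benjamini-Hochberg, BMPR2 alone of the 9 passed. The median log2 fold change was -0.08 for the 9 genes and 0.00 for all genes, and the median absolute value was 0.26 for the 9 and 0.21 for all.

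**Figure D1:**
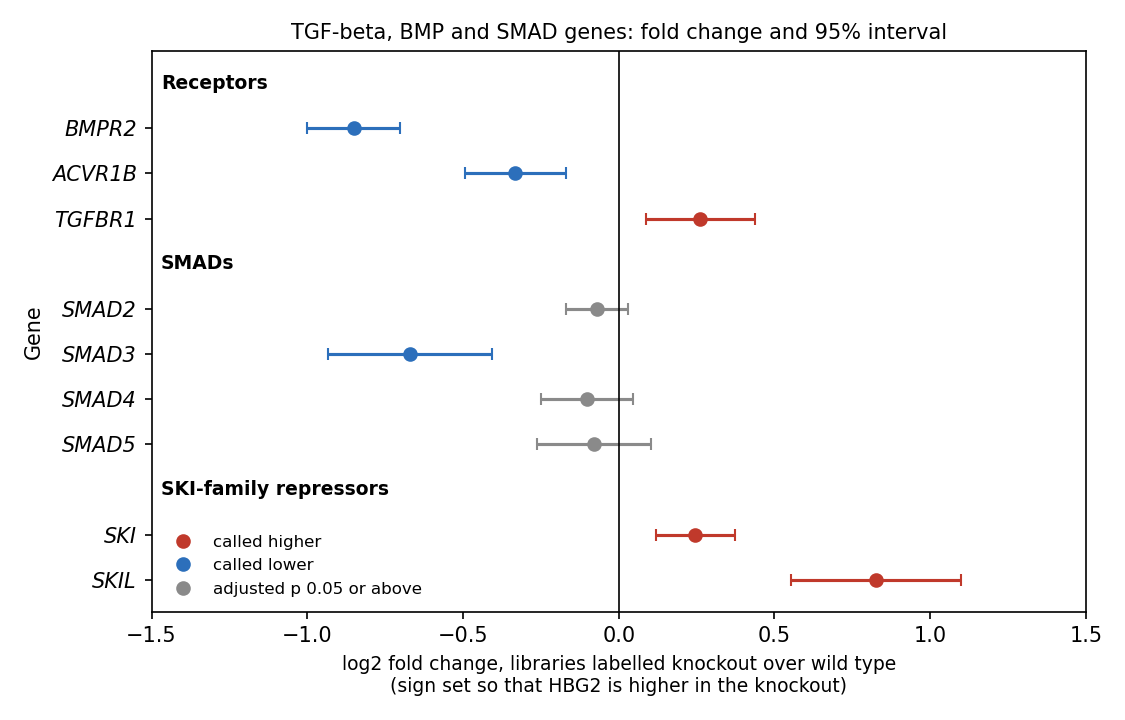
Log2 fold change (x axis, libraries labelled knockout over wild type, sign set through HBG2) of the 9 measured genes (y axis, by role); points are estimates and bars 95% intervals. BMPR2 (-0.85) and SMAD3 (-0.67) lie left of 0 and SKIL (0.83) right of it, each with an interval clear of 0, while the intervals of SMAD2, SMAD4 and SMAD5 cross 0.

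Upstream sequence is shown for the genes that have a single start site in the RefSeq promoter table, among them BMPR2 and SKIL, which had the largest changes in opposite directions; SMAD4 and SMAD5, which did not pass the threshold, stand beside them. Each run is the 150 bases before the annotated start, 5′ to 3′ on the gene's strand (all plus), from RefSeq on GRCh38.p14: BMPR2 at chr2:202376177-202376326, SKIL at chr3:170357565-170357714, SMAD4 at chr18:51030063-51030212 and SMAD5 at chr5:136132695-136132844. Capitals mark GTCT or its reverse complement AGAC, the short box that SMAD3 and SMAD4 bind, and GGCGCC, a GC-rich element known for BMP-activated SMADs.
BMPR2: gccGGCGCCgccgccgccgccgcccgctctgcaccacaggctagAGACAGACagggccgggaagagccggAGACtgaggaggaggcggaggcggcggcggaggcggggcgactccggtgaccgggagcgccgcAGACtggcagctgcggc
SKIL: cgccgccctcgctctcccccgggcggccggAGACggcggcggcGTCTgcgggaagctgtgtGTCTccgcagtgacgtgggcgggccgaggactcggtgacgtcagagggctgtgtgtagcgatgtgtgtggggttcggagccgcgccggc
SMAD4: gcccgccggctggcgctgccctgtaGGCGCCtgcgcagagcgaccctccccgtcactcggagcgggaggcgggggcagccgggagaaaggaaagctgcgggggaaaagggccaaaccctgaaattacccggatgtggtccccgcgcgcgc
SMAD5: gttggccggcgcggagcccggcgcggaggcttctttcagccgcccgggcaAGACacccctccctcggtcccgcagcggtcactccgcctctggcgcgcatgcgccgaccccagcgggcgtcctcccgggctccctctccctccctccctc

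On both strands, the BMPR2 window held 4 GTCT boxes, the SKIL window 3, the SMAD5 window 1 and the SMAD4 window 0. A link between box counts and fold changes was not tested. Genes with several start sites varied: among called genes, the 5 windows of SMAD3 held from 0 to 2 boxes, the 8 of TGFBR1 held 0 or 1 and the 2 of ACVR1B held 0 and 4. The 2 windows of SMAD2, which was not called, held 0 and 1, and the 3 of SMAD7, which was not analysed, held 0, 2 and 3. At least 3 boxes stood in 6.46% of the 35116 RefSeq windows of this length, and at least 1 in 57.3%. GGCGCC occurred 1 time each in the BMPR2 and SMAD4 windows and in 11.7% of all windows. Among genes with several start sites, it occurred 3 times in a window of ACVR1B and 2 times in a window of SMAD3. It occurred 1 time in each of the 2 windows of SMAD2 and 1 time in a window of TGFBR1. At least 3 occurrences stood in 0.14% of all windows. The ETS element CCGGAAG, searched on both strands because ERF has an ETS domain, matched none of the 4 windows and 6.85% of all. Only these exact letters were searched, so shorter or variant ETS sequences may be present. The 8-base SMAD palindrome GTCTAGAC matched none of the 4 either and 0.0883% of all. A letter match is a description of sequence and not a binding site, and the windows are GC-rich, from 72.0% in SMAD4 to 78.0% in BMPR2 against a median of 60.0% over all windows. Windows were found for 9 of the 10 listed genes, with several start sites for ACVR1B, SMAD2, SMAD3, SMAD7 and TGFBR1. SKI had no entry.

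Among receptors, BMPR2 changed most. BMPR2 (ENSG00000204217, chromosome 2), the type II receptor for BMPs, fell by 0.85 on the log2 scale in the libraries labelled knockout (SE 0.07, interval -0.999 to -0.701), which is 1.80-fold. The authors' deposited table put its adjusted p at 6.03e-06. Its p-value ranked 256 among 11976 genes and its absolute fold change lay at the 95.1 percentile. It was expressed at 6.76 log2 CPM, and the 725 genes within 0.25 log2 CPM of it had a median absolute log2 fold change of 0.15, with 53.4% of them called.

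ACVR1B (ENSG00000135503, chromosome 12), the type I activin receptor also called ALK4, was 1.26-fold lower. With the sign set through HBG2, its log2 fold change from the authors' deposited table was -0.33 (SE 0.07, interval -0.49 to -0.17). The adjusted p there was 0.00354. TGFBR1 (ENSG00000106799, chromosome 9), the type I TGF-beta receptor also called ALK5, moved the other way. It was 1.20-fold higher at 0.26 in the authors' deposited table (SE 0.08, interval 0.09 to 0.44, adjusted p = 0.0181). Of the 6 called genes it had the highest adjusted p. Its SE exceeded the median of 0.05 among genes of like expression. The same held for every other called gene, for example SMAD3 (0.12 against 0.08) and SKIL (0.12 against 0.10). These type I receptors, which both act on SMAD2 and SMAD3, thus stood on opposite sides of 0 with intervals that do not overlap.

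The other receptors and co-receptors, from a wider pathway list, were either lower or not past the threshold. Besides the 3 receptors above, 8 of 16 listed genes were measured, of which 4 were lower and 0 higher, and their median log2 fold change was -0.16. The called share, 4 of 8, is near the 50.9% of all genes, of which 25.9% were lower, and is no result about receptors as a group. ACVR2B, a type II activin receptor, was 1.63-fold lower at -0.71 in the authors' deposited table (SE 0.17, adjusted p = 0.00622), but its mean expression was only 0.57 log2 CPM. AMHR2, the type II receptor of anti-Müllerian hormone, stood at -0.38 (SE 0.13, adjusted p = 0.0312) in the authors' deposited table. BMPR1A, the type I BMP receptor ALK3, stood at -0.27 (SE 0.06, adjusted p = 0.00274) there. NEO1, the co-receptor neogenin, stood at -0.22 (SE 0.05, adjusted p = 0.00306) in the authors' deposited table.

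The 4 receptors that did not pass were the type II TGF-beta receptor TGFBR2 (-0.10, interval -0.26 to 0.06), the co-receptor endoglin ENG (0.04, interval -0.14 to 0.21), the type I receptor ACVR1 (0.07, interval -0.23 to 0.37) and ACVR2A (0.26, interval -0.13 to 0.66) in the authors' deposited table. The intervals of ACVR1 and ACVR2A were wide, and both genes were low, at 1.76 and 0.74 log2 CPM. Both branches were thus represented among the lower receptors: BMPR2 and BMPR1A bind BMPs, and ACVR1B and ACVR2B bind activins. TGFBR1 was the single receptor called higher among the 11 measured, and at an adjusted p below 0.01 its call ends.

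Within the SMADs, a difference that passed the threshold was found for SMAD3 alone among the 4 measured. SMAD3 (ENSG00000166949, chromosome 15) was 1.59-fold lower in the libraries labelled knockout, at a log2 fold change of -0.67 (SE 0.12, interval -0.93 to -0.41, adjusted p = 0.000985) in the authors' deposited table. SMAD2 (ENSG00000175387, chromosome 18), its close paralog in the same branch, had a log2 fold change of -0.07 (SE 0.04, interval -0.17 to 0.03, adjusted p = 0.218) in the authors' deposited table. The intervals of SMAD3 and SMAD2 do not overlap.

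SMAD4 (ENSG00000141646, chromosome 18), the partner shared by both branches, had a log2 fold change of -0.10 (SE 0.07, interval -0.25 to 0.05, adjusted p = 0.229) in the authors' deposited table. SMAD5 (ENSG00000113658, chromosome 5), a transducer of BMP signals, stood at -0.08 (SE 0.08, interval -0.26 to 0.10, adjusted p = 0.446) there. All 4 estimates were below 0, and the 3 that missed the threshold had intervals with lower ends between -0.26 and -0.17, so a decrease of the size seen for SMAD3 lies outside each of them. SMAD1, SMAD6 and SMAD9 were not analysed here.

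**Figure D2:**
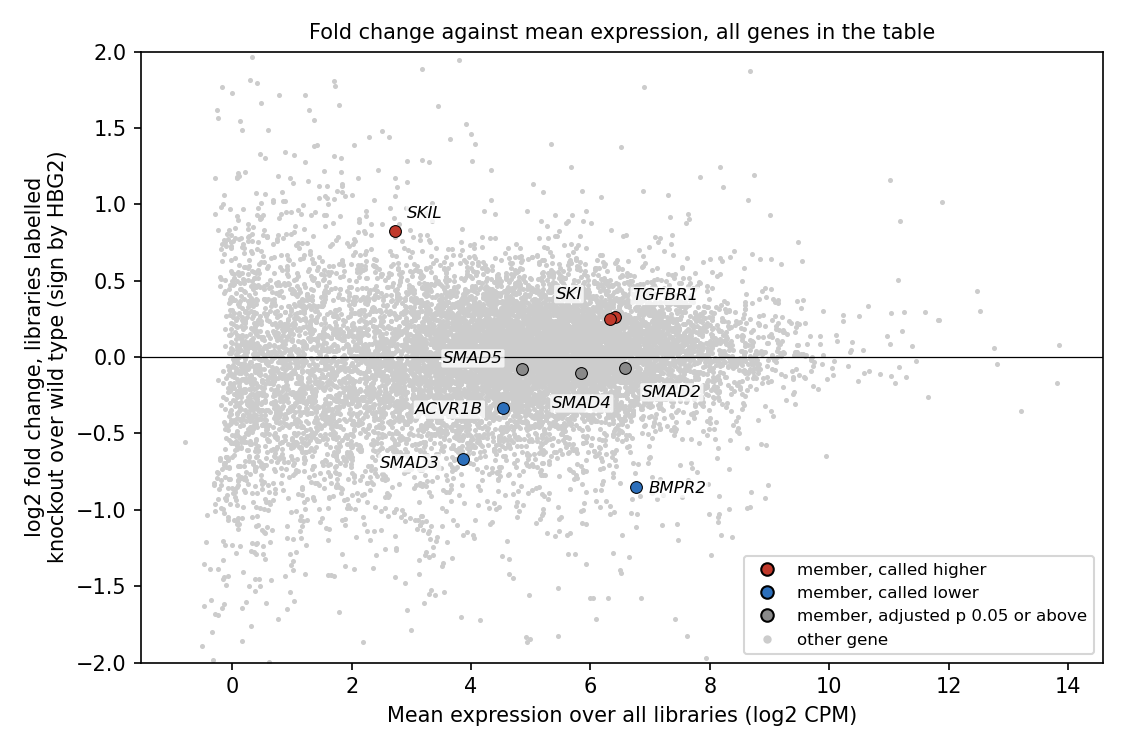
Log2 fold change (y axis, libraries labelled knockout over wild type, sign set through HBG2) against mean log2 CPM (x axis) for all genes in grey and the 9 measured genes in colour; 49 genes lie outside the axis limits of -2 and 2. BMPR2 lies among the lower genes of its expression, whereas SMAD2, SMAD4 and SMAD5 lie near 0.

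Both SKI-family repressors were higher. SKIL (ENSG00000136603, chromosome 3), also called SnoN, is a repressor whose gene is itself induced by TGF-beta. It was 1.77-fold higher at a log2 fold change of 0.83 (SE 0.12, interval 0.55 to 1.10, adjusted p = 0.000335) in the authors' deposited table. At 2.72 log2 CPM it had the lowest mean expression of the 9 genes, and 46.3% of the 547 genes of like expression were called. SKI (ENSG00000157933, chromosome 1), the founding member of the family, was 1.19-fold higher at 0.25 (SE 0.06, interval 0.12 to 0.37, adjusted p = 0.00505) in the authors' deposited table. The interval of SKIL lies wholly above that of SKI.

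Levels between genes can be set side by side only per length, so the mean CPM was divided by the merged exon length of GENCODE 29, which may differ from the annotation behind the counts. On this scale of mean level over all libraries, SKI had 13.2 CPM per kb, TGFBR1 12.5 and BMPR2 9.13. SMAD4 had 4.37, ACVR1B 4.07 and SMAD5 3.20 CPM per kb. SMAD2 (2.64), SMAD3 (1.60) and SKIL (0.848) were lowest in CPM per kb. The merged exons of SMAD2 span 36.4 kb because of long alternative transcripts, which lowers its value. No spread over libraries is known, so neighbours in this order cannot be separated. SKIL, the higher-going repressor, thus had a mean level far below that of SKI.

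In GENCODE 29, gene bodies of TGFBR1, BMPR2, SMAD2, SMAD3 and SMAD5 overlap genes on the opposite strand, among them SMAD5-AS1, and SMAD4 overlaps a further protein-coding annotation on its own strand. How the counting treated strand was not stated in the labels or headers, and reads from such partners cannot be told apart. Of the genes that overlap any of the 10, 0 had a row in the authors' deposited table. SKI, SKIL and SMAD7 overlap none.

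Ligands of the family went in both directions. Of 28 listed, 7 were measured, of which 3 were higher and 3 lower, beside 24.9% higher and 25.9% lower among all genes. BMP1, which the ligand list also held, is a protease that matures collagen and not a ligand in spite of its name, and stood at 0.20 with an adjusted p of 0.0496 in the authors' deposited table. INHBE, which encodes the activin subunit beta E, was 28.7-fold lower at -4.84 (SE 0.20, adjusted p = 7.07e-08) in the authors' deposited table, at a mean of 1.10 log2 CPM, where the fold depends on the prior count of the fit. GDF15, a distant family member that signals through another receptor, was 1.71-fold lower at -0.77 (SE 0.12, adjusted p = 0.000358) there. INHBE and GDF15 are also known as genes of the integrated stress response.

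Other ligands were singled out after their values were seen. GDF11, a ligand for activin receptors, was higher at 0.75 (SE 0.11, adjusted p = 0.000232) and TGFB1 at 0.44 (SE 0.09, adjusted p = 0.00193) in the authors' deposited table. AMH was higher at 0.36 and BMP8B lower at -0.20, whereas TGFB3, at 0.12, did not pass in the authors' deposited table.

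Extracellular antagonists and latent-complex genes had 6 of 18 measured, with 0 higher, 3 lower and 3 not past the threshold. The called share, 3 of 6, is near the 50.9% of all genes, of which 25.9% were lower, and is no result about this group. TWSG1, a modulator of BMP activity, stood at -0.50 (SE 0.10, adjusted p = 0.00241) and LTBP3, which binds latent TGF-beta, at -0.36 (SE 0.12, adjusted p = 0.0256) in the authors' deposited table. The third, LTBP4, stood at -0.23 and was named after its value was seen.

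**Figure D3:**
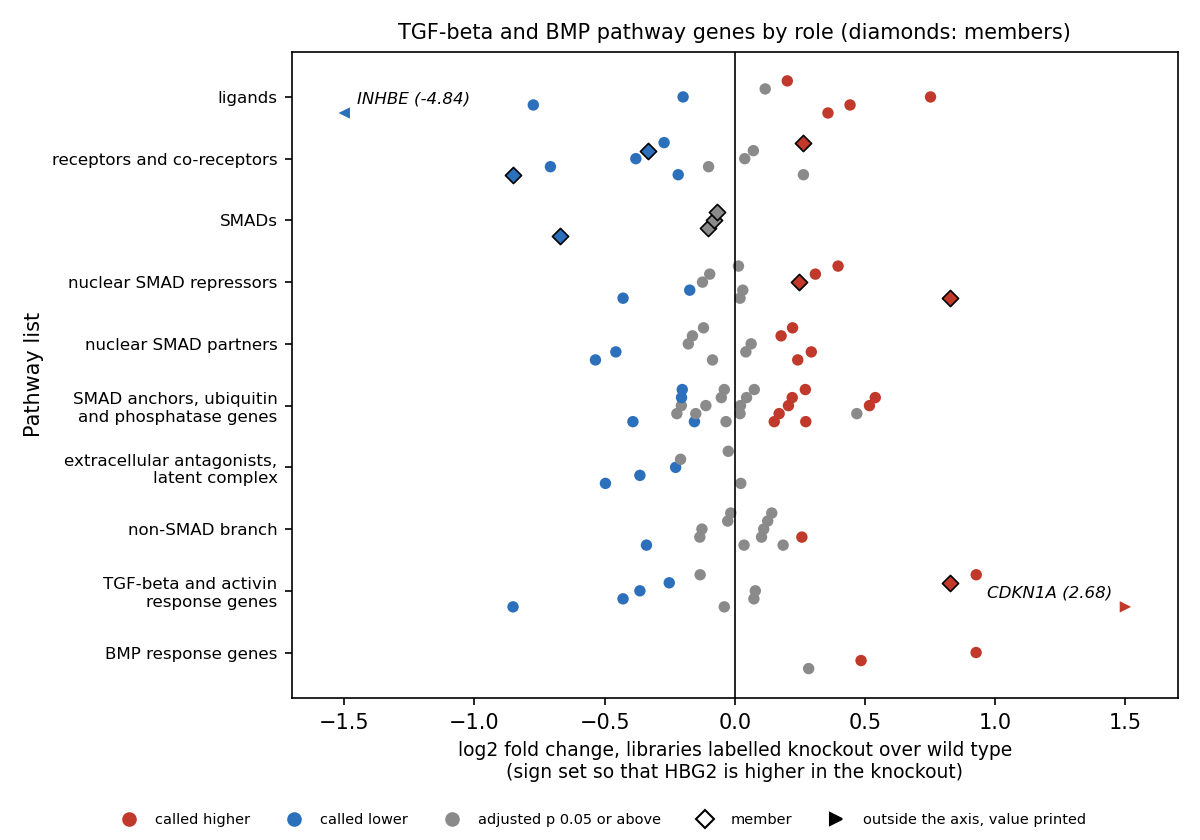
Log2 fold change (x axis, libraries labelled knockout over wild type, sign set through HBG2) of every measured gene in 10 pathway lists (y axis); each point is 1 gene, diamonds are the 9 genes above, and triangles mark INHBE (-4.84) and CDKN1A (2.68), which lie outside the axis. The ligand row holds BMP1 too. The receptor row, which includes 3 of the 9 genes, shows 6 called lower and 1 called higher among 11. Over all genes, 25.9% were called lower and 24.9% higher.

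Beyond SKI and SKIL, 9 further nuclear SMAD repressors were measured, with 2 higher, 2 lower and 5 not past the threshold. Among all genes, 24.9% were higher and 25.9% lower. TGIF1 and TGIF2, homeodomain corepressors of SMADs, parted: in the authors' deposited table TGIF2 stood at 0.40 (SE 0.06, adjusted p = 0.000562) and TGIF1 at -0.43 (SE 0.08, adjusted p = 0.00112). Of 12 measured nuclear partners that work with SMADs, 4 were higher, 2 lower and 6 not past. RUNX1, a hematopoietic transcription factor, stood at -0.54 and SP1 at -0.46 in the authors' deposited table, and both passed (2.75e-05 for RUNX1 and 3.38e-05 for SP1, adjusted).

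Genes that anchor, ubiquitinate or dephosphorylate SMADs and receptors had 8 higher, 4 lower and 12 not past among 24 measured. Among all genes, 24.9% were higher and 25.9% lower. ZFYVE16, the endosomal anchor endofin, was 1.45-fold higher at 0.54 (adjusted p = 0.000132) in the authors' deposited table. STRAP, a receptor-associated inhibitor of TGF-beta signalling, was 1.43-fold higher at 0.52 (adjusted p = 2.67e-05) there. In the branch that does not pass through SMADs, 1 of 12 genes was higher and 1 lower. These were the actin-regulating kinases LIMK1 (0.26, adjusted p = 0.0224) and LIMK2 (-0.34, adjusted p = 0.00365) in the authors' deposited table.

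Response genes did not move as one. Of 10 measured TGF-beta and activin response genes other than SKIL, 2 were higher and 4 lower, beside 24.9% and 25.9% of all genes. Their median log2 fold change was -0.09. The list was not split by the direction in which TGF-beta moves each gene, so this median does not measure a response. The CDK inhibitor CDKN1A stood at 2.68 (SE 0.26, adjusted p = 2.36e-05) at a low 0.33 log2 CPM, and JUNB at 0.93 (SE 0.05, adjusted p = 8.39e-07) in the authors' deposited table. Both genes also respond to other signals. The lower ones were BHLHE40 (-0.85), TGIF1 (-0.43), LTBP3 (-0.36) and KLF10 (-0.25) in the authors' deposited table; BHLHE40 and KLF10 were named after their values were seen.

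Of 13 further BMP response genes 3 were measured, 2 higher and 1 not past. GATA2, an early progenitor factor, stood at 0.93 (SE 0.07, adjusted p = 4.78e-06) and ID2 at 0.48 (SE 0.05, adjusted p = 4.68e-05) in the authors' deposited table. ID1, the classical BMP target, had 0.28 with an interval of 0.02 to 0.55 and an adjusted p of 0.0682 there, and was named after its value was seen. The BMP receptors BMPR2 and BMPR1A were lower in the same comparison, while the receptors ACVR1 and ACVR2A did not pass. With 50.9% of all genes called, these calls are no result about BMP signalling, which was not tested.

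Counted once each, the 89 measured pathway genes outside the 10 had 23 higher, 21 lower and 45 not past the threshold. This balance depends on the scaling: with the median of genes at 5 log2 CPM or more set to 0, 20 were higher and 29 lower, beside 2566 higher and 3532 lower among all genes. The called share was 49.4%, close to the 50.9% of all genes, and 8 of the 89 (8.99%) were called at 1.5-fold or more, beside 11.2% of all genes. Their median log2 fold change was 0.02. Larger changes among the 89 stood in single genes such as INHBE, CDKN1A, JUNB and GATA2.

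**Figure D4:**
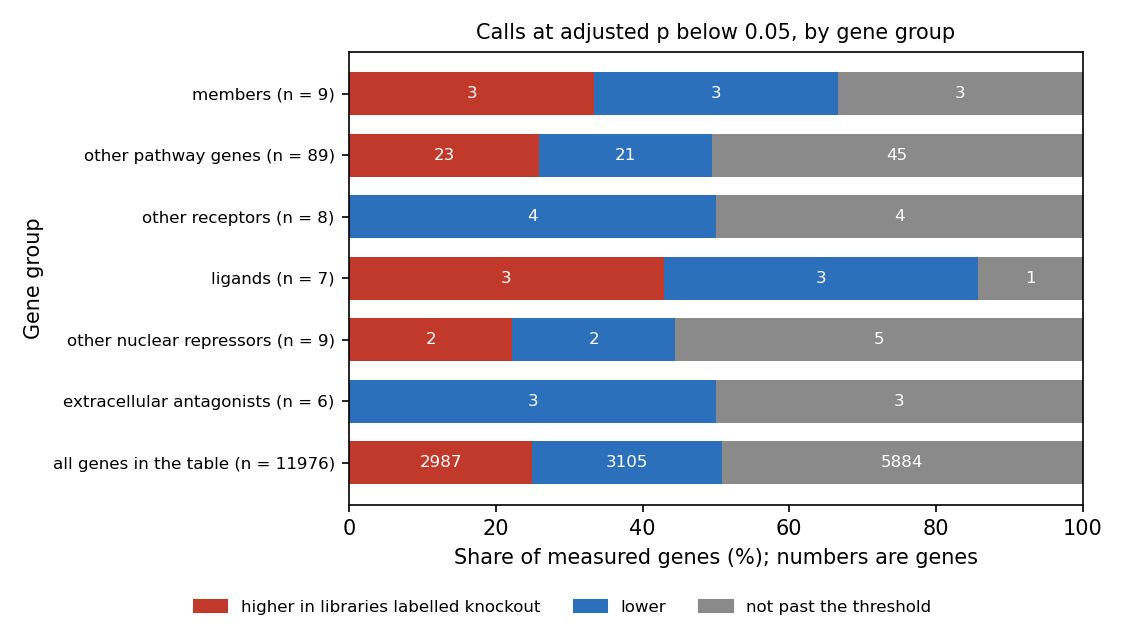
Share of measured genes (x axis, percent) by call (higher, lower or not past the threshold) and gene group (y axis); numbers in the bars are genes. The 9 genes had 3, 3 and 3, and the 89 other pathway genes had 23, 21 and 45, near the split of all 11976 genes.

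The cell type label was checked with marker genes. All 14 erythroid markers were measured, among them HBB at 12.48, TFRC at 11.89, KLF1 at 8.15 and GATA1 at 7.36, all as mean log2 CPM from the authors' deposited table. Of 18 markers of other cell types, 4 had a row: EPCAM at 7.36, ITGA2B at 7.26, PTPRC at 5.95 and LYZ at 0.48 log2 CPM. EPCAM and ITGA2B are also expressed in erythroid progenitors. Erythroid markers moved along with the comparison, 10 higher, 1 lower and 3 not past, at a median of 0.26. Over all genes, 24.9% were called higher and 25.9% lower. The higher markers include the globin genes HBB, HBA1, HBA2 and HBD. Because the sign was set through HBG2, another globin gene, their direction is not independent of that choice. Of the other markers, EPCAM was lower (-0.20) and 0 were higher in the authors' deposited table. The part of maturation state in the changes of BMPR2, SMAD3 and SKIL was not tested.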

How the data were processed

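Tools named in the submitters' processing notes, with no roles, are edgeR 2.6.12, Cuffdiff, HTSeq, SAMtools and TopHat2 2.0.4; the build is hg19/GRCh37. Trizol RNA went into TruSeq libraries, per the labels' protocols. How genes were filtered and values normalized was not stated. The 5 measures deposited by the authors are, per the file headers, the quasi-likelihood F score from edgeR, its p-value, the Benjamini-Hochberg adjusted value, mean log2 CPM and the log2 fold change. Of 11979 rows, 3 name no gene (reads outside genes, ambiguous or aligned more than once); these hold 21.5% of the CPM and were left out. No model was refitted, since 0 columns hold values per library, so depth is unknown.

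The sign was set through HBG2. SE is the absolute log2 fold change over the square root of F, and intervals use t with 10.3 degrees of freedom, solved from F and p. Both are approximate. The derivation was run on simulated data made with the same relation of F to SE and the same degrees of freedom, which checks the arithmetic only. How well SE and intervals hold for edgeR fits of counts was not tested. Python 3.11.15, pandas 2.3.3 and scipy 1.17.1 were used.

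The 10 genes and the pathway lists (149 further genes in 10 lists, matched by symbol) were chosen with earlier results of these data known. Named genes are the 10, all measured receptors and SMADs, and the 2 called genes with the largest absolute fold change in each list. Chromosomes, exon lengths and overlaps come from GENCODE 29 on GRCh38, windows from RefSeq. Alternatives varied the expression filter, the adjustment, the centring, the threshold and the sign. 1 erythroid marker gene is not reported here.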

Additional observations from a re-analysis of the deposited data

How the results depend on the processing

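No paired analysis was possible because the deposited table holds no values per library; for the same reason no replicate could be left out. The calls were repeated with genes of at least 2 log2 CPM and with adjustment over the rows that name a gene. They were also repeated after the median of genes at 5 log2 CPM or more was set to 0 (a shift of 0.03). In each setting all 9 measured genes kept their side of the threshold. Their direction could not change, so it was not tested here. The filter and the adjustment left the fold changes unaltered, and the shift was smaller than every absolute fold change of the 9. All 9 lie above the filter, and the adjustment left out only 3 rows, so these settings put the calls to a weak test. The centring gave 20 higher and 29 lower among the other pathway genes, against 23 and 21 as deposited. With Bonferroni adjustment, 0 of the 9 were called higher and 1 lower (BMPR2), and of the 89 other pathway genes 5 were higher and 3 lower, while 6.50% of all genes were called. At 1.5-fold or more, the 9 genes had 1 higher (SKIL) and 2 lower, and the other pathway genes 4 higher and 4 lower. At an adjusted p below 0.01, calls fell to 35.9% of all genes, the 9 genes had 2 higher and 3 lower, since the call of TGFBR1 ends, and the other pathway genes had 17 higher and 15 lower. Reading the sign the other way exchanges higher and lower. Genes of low mean expression had wide intervals, which limits what ACVR1, ACVR2A and ACVR2B can show.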
